A study of Homo sapiens with 12 samples.

Results

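Replication-dependent histone genes were taken as the rows of the deposited expression table whose symbol begins with HIST1H, HIST2H, HIST3H or HIST4H. The rule gave 89 of 35337 rows, of which 8 carry the symbol of the linker histone H1 and 23, 26, 16 and 16 that of the core histones H2A, H2B, H3 and H4. RefSeq annotates 19 of the 89 as pseudogenes, none of them tested, and names HIST1H1PS2, counted here with H1, as an H3 pseudogene. Expression was compared between senescent and non-senescent EndoC-βH3 cells, a human beta-like line made from fetal pancreas that was immortalized with hTERT and the large T antigen of SV40. Senescent cells were treated with 4-hydroxytamoxifen (4-OHT) for 3 weeks, which activates the CreER recombinase the cells carry and cuts out both transgenes, and non-senescent cells are labelled as controls. All 12 libraries came from this 1 line, are labelled genotype WT and hold either treated or control cells, with 2 libraries of each group in batch A and 4 of each in batch B. The line is therefore a model of beta cells that stop dividing when an oncogene is excised, and both groups share the same origin and the same introduced recombinase.

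Histone genes of this kind are made in bulk during S phase, when new DNA has to be packed into nucleosomes, and their transcription is driven by NPAT after phosphorylation by cyclin E and CDK2. Their usual mRNA has no poly(A) tail. It ends after a short stem-loop that is bound by SLBP, cut with the help of the U7 snRNP and degraded quickly once replication stops. Histone genes can also give polyadenylated mRNA from signals further downstream, as is known for differentiated and resting cells. CEL-seq2, the method used here, starts reverse transcription from oligo(dT), so a histone read came from a transcript with a tail or from an A-rich stretch inside one, and the levels below are not levels of total histone mRNA.

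The stem-loop was read from the reference to see whether members that rose and members that fell differed in it. On GRCh38, all 70 members with an annotated stop codon held it within 100 bases after the stop (at most 1 mismatch to the stem-loop pattern), beginning 23 to 68 bases after it, and 2 of 19854 other protein-coding genes did (H2AX and H3C15, 0.0101%). The 10 members below are the largest rise, the largest fall and the member with the highest mean over the 12 libraries of each class where tested. Capitals mark the 16 bases of the stem-loop.
HIST1H1C (chr6:26055739-26055764, minus strand): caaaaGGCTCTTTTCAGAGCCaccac
HIST1H2AC (chr6:26124664-26124689, plus strand): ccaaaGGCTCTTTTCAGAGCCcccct
HIST2H2AC (chr1:149887386-149887411, plus strand): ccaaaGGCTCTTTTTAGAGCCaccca
HIST2H2AA3 (chr1:149842218-149842243, minus strand): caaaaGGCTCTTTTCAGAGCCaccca
HIST2H2BE (chr1:149886183-149886208, minus strand): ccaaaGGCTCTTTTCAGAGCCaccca
HIST1H2BJ (chr6:27132316-27132341, minus strand): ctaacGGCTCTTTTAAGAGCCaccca
HIST1H3E (chr6:26225591-26225616, plus strand): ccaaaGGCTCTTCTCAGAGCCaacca
HIST2H3C (chr1:149840687-149840712, minus strand): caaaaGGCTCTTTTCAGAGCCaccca
HIST1H4E (chr6:26204996-26205021, plus strand): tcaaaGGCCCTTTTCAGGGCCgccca
HIST1H4C (chr6:26104312-26104337, plus strand): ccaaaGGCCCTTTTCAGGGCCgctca
The 15 H4 members with a stem-loop all began it with GGCC, and 54 of the 55 others began it with GGCT. HIST1H4C, which fell, and HIST1H4E, which rose, had the same 16 bases. So did HIST2H2BE, which rose, and HIST2H3C, which fell, though these are of different classes. Within H2A, H2B and H3, the largest rise and the largest fall shown did not have the same 16 bases. Even so, HIST1H2BJ, which fell, had the same 16 bases as HIST1H2BC and HIST1H2BD, H2B members that rose and are not shown. Whether the letters go with the direction was not tested.

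Sequencing was deeper in batch A (8873569 to 17106776 reads per library) than in batch B (4672924 to 7063264). Within each batch, every senescent library was also deeper than every non-senescent one. In A the ranges were 13059934 to 17106776 reads in senescent and 8873569 to 12792199 in non-senescent libraries. In B they were 5973370 to 7063264 and 4672924 to 5746836. Members other than HIST1H4C supplied at most 0.0388% of the reads of a library, so most members rested on few reads: 54 of 89 had any read, and 22 reached a mean normalized read count of 5 over the 12 libraries and were tested. A floor of 3 reads corresponded to 1.35 to 4.52 normalized read counts per library, covering counting error only. The labels were checked with MKI67, a proliferation marker, whose mean normalized read count was 537 without and 73.6 with senescence, and CDKN1A, a cell-cycle inhibitor, whose mean was 45.1 and 981. Summed beta-cell markers (8 of 8 measured) ranged from 20630 to 45031 in non-senescent and from 62479 to 203822 in senescent libraries, INS included. INS made up most of that sum, with means of 19853 without and 99547 with senescence. The means of IAPP, PDX1, MAFA and ABCC8 were also higher with senescence. Those of NKX6-1 (487 and 366), SLC30A8 (3224 and 2797) and PCSK1 (661 and 350) were lower. SST, which marks delta cells, was also high in every library (114932 to 287479), with a mean of 206128 without and 128684 with senescence, and GCG, which marks alpha cells, averaged 4166 and 2088. Of 11 markers of acinar, ductal, fibroblast, endothelial and immune cells, 1 (VWF) was at 0 throughout, and their sum was 312 to 521 in non-senescent and 251 to 470 in senescent libraries. Single markers moved both ways under that sum, with means without and with senescence of 43.6 and 211 for CPA1 (acinar), 311 and 125 for KRT19 (ductal) and 13.5 and 3.26 for PTPRC (immune). Their part in the histone values was not tested.

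Most histone genes that could be tested were higher in senescent cells, the opposite direction to the S phase genes of the same libraries, while HIST1H4C, the member with the highest mean over the 12 libraries through its level in batch B, fell. Of the 22 tested members, 12 rose (11.6% of all 13847 tested genes rose), 5 fell (11.8% of all tested genes fell) and 5 did not pass the test, which was limma with batch as a term, an adjusted p under 0.1 over all genes tested and a fold change over 1.5. Called members with a mean under 5 in 1 group passed the filter only through the other group. Among rises these were HIST1H2BC and HIST1H2AE (4.99 and 4.31 in non-senescent). Among falls they were HIST2H2AC, HIST1H2AG and HIST2H3C (4.42, 4.52 and 1.07 in senescent). The tested members had a median log2 fold change of 0.96, with 0.98 in A and 1.00 in B, beside 0.01 over all tested genes. Rises ran from 0.87 for HIST2H2AA3 to 3.61 for HIST1H4E on the log2 scale, and falls from -1.17 for HIST1H2BJ to -2.26 for HIST1H4C. Counting members whose senescent libraries all lay above, or all below, the non-senescent ones in A and again in B gave 10 higher (11.9% of all tested genes) and 2 lower (11.9%). Fold changes are on the log2(normalized read count + 1) scale, which understates changes of low genes. With a pseudocount of 8 in place of 1, HIST1H4E (2.45) lay below HIST1H2AC (2.90) and HIST2H2BE (2.67), and HIST2H2AC was at -1.17. The p-values measure only the spread between these libraries, which may be technical. In bulk libraries, fewer cells that make a transcript and less of it per cell cannot be told apart.

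**Figure D1:**
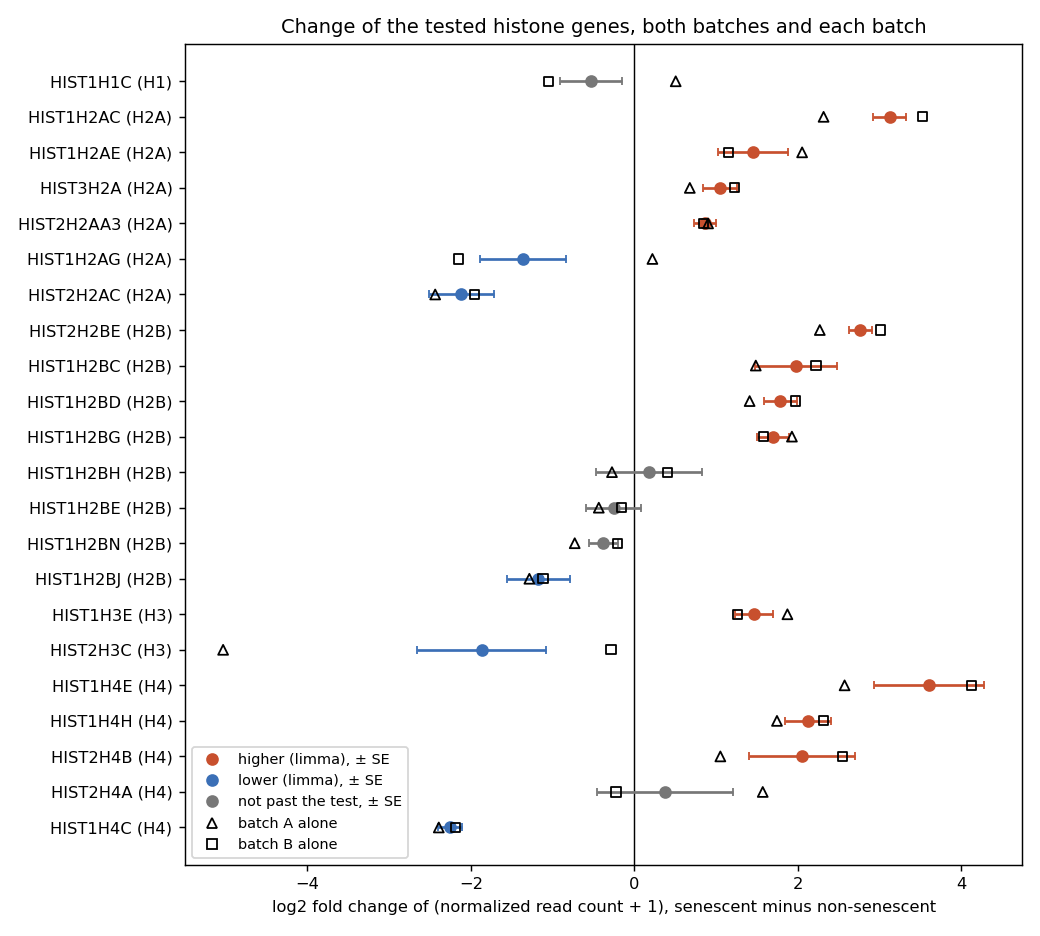
Change of each of the 22 tested histone genes. The horizontal axis is the log2 fold change of (normalized read count + 1), senescent minus non-senescent. Filled points are the limma estimates over both batches with SE bars, colored by whether the gene rose, fell or did not pass the test. Open triangles and squares are batch A and batch B alone, which lie on opposite sides of 0 for HIST1H1C, HIST1H2AG, HIST1H2BH and HIST2H4A.

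Reads may be divided wrongly between near-identical copies, so the members were also summed by class in each library (no test was run on sums). The H2A sum was 426 to 438 in non-senescent and 970 to 992 in senescent libraries of batch A, and 199 to 304 against 665 to 852 in batch B. Its log2 difference was 1.18 in A and 1.45 in B, with a spread between libraries of one group and batch of 0.20 (SD, log2). The H2B sum differed by 1.70 in A and 1.94 in B, with a spread of 0.10. In both classes the groups did not overlap in either batch. The H3 sum differed by 0.71 in A and 0.68 in B with a spread of 0.42, and its groups overlapped in batch B, where senescent B3 (25.2) lay among the non-senescent libraries (23.4 to 34.6). Without HIST1H3E, which supplied 76.8% of its reads, the H3 sum was lower with senescence in both batches, by a log2 difference of -2.24 in A and -0.94 in B with a spread of 0.83.

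For H1 and H4 the direction of the sum depended on the batch. The H4 sum was higher in senescent libraries of batch A (632 and 624 against 411 and 344, log2 difference 0.74) and lower in those of batch B (2457 to 2704 against 7082 to 14036, log2 difference -2.08). HIST1H4C supplied 98.0% of the H4 reads of batch B but 759 of 3612 in batch A (53.1% without and 5.61% with senescence). Without it, the H4 sum was higher in senescent cells in both batches (603 and 580 against 172 and 191 in A, and 160 to 242 against 20.6 to 70.8 in B), by 1.70 and 2.07. The H1 sum, at most 73 reads in any library and mostly from HIST1H1C, differed by 0.51 in A and -1.52 in B.

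**Figure D2:**
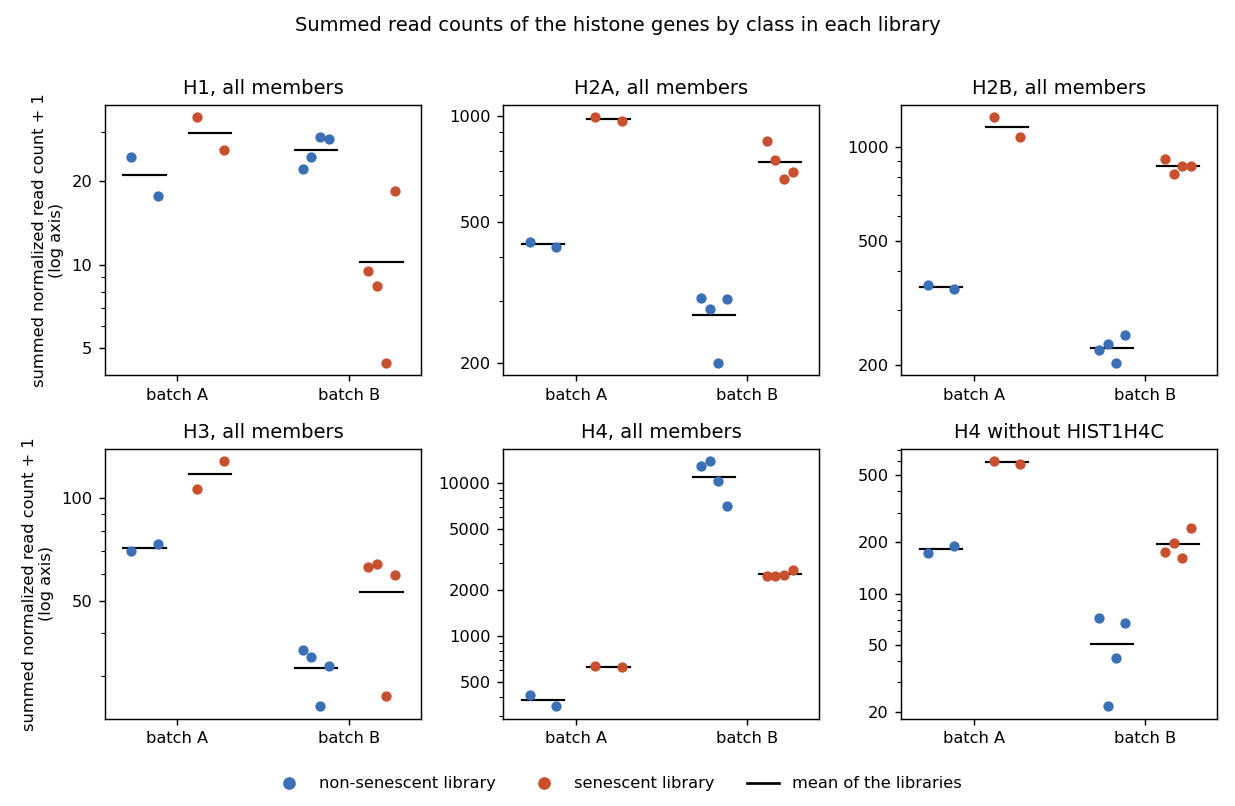
Summed normalized read counts (plus 1, log axis) of all members of each histone class in the 12 libraries, by batch, with H4 also shown without HIST1H4C. Points are libraries and bars are their means. H2A and H2B are higher in every senescent library of both batches, whereas H4 is higher in A and lower in B until HIST1H4C is left out.

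Summed over all 89 members, the log2 difference of the signal was 1.22 in A but -1.43 in B. With HIST1H4C left out it was 1055 and 1063 in non-senescent and 2781 and 2976 in senescent libraries of batch A, and 492 to 676 against 1725 to 2008 in batch B. That is a log2 difference of 1.44 in A and 1.63 in B, with a spread of 0.14. The share of all reads from members other than HIST1H4C was 0.0149% to 0.0150% in non-senescent and 0.0353% to 0.0388% in senescent libraries of A. In B it was 0.0072% to 0.0095% and 0.0232% to 0.0266%.

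HIST1H4C (chr6:26103933-26104337, plus strand, 1 annotated transcript without introns) encodes the core histone H4 and fell in both batches. In batch A it had 238 and 153 normalized read counts in non-senescent and 28.7 and 44.1 in senescent libraries. In batch B it had 12858, 14015, 10292 and 7016 in non-senescent and 2309, 2259, 2358 and 2462 in senescent libraries. Every senescent library lay under every non-senescent library of its batch, by a log2 fold change of -2.26 (SE 0.15, limma adjusted p 3.45e-09), with -2.39 in A and -2.19 in B.

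The level of HIST1H4C itself differed between batches far more than between groups. Batch B was 56.4 times batch A in non-senescent and 64.5 times in senescent cells. The H4 members HIST1H4E and HIST1H4H went the other way: HIST1H4E was 3.25 times as high in A as in B in non-senescent and 2.87 times in senescent libraries, and HIST1H4H 4.59 and 2.95 times. What the batches differed in besides their label was not tested. A limma fit without the batch term did not call HIST1H4C (adjusted p 0.418). Its coding sequence was the most distinct among the tested members with an equal-length relative, 83.3% identical to its nearest, HIST1H4B.

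**Figure D3:**
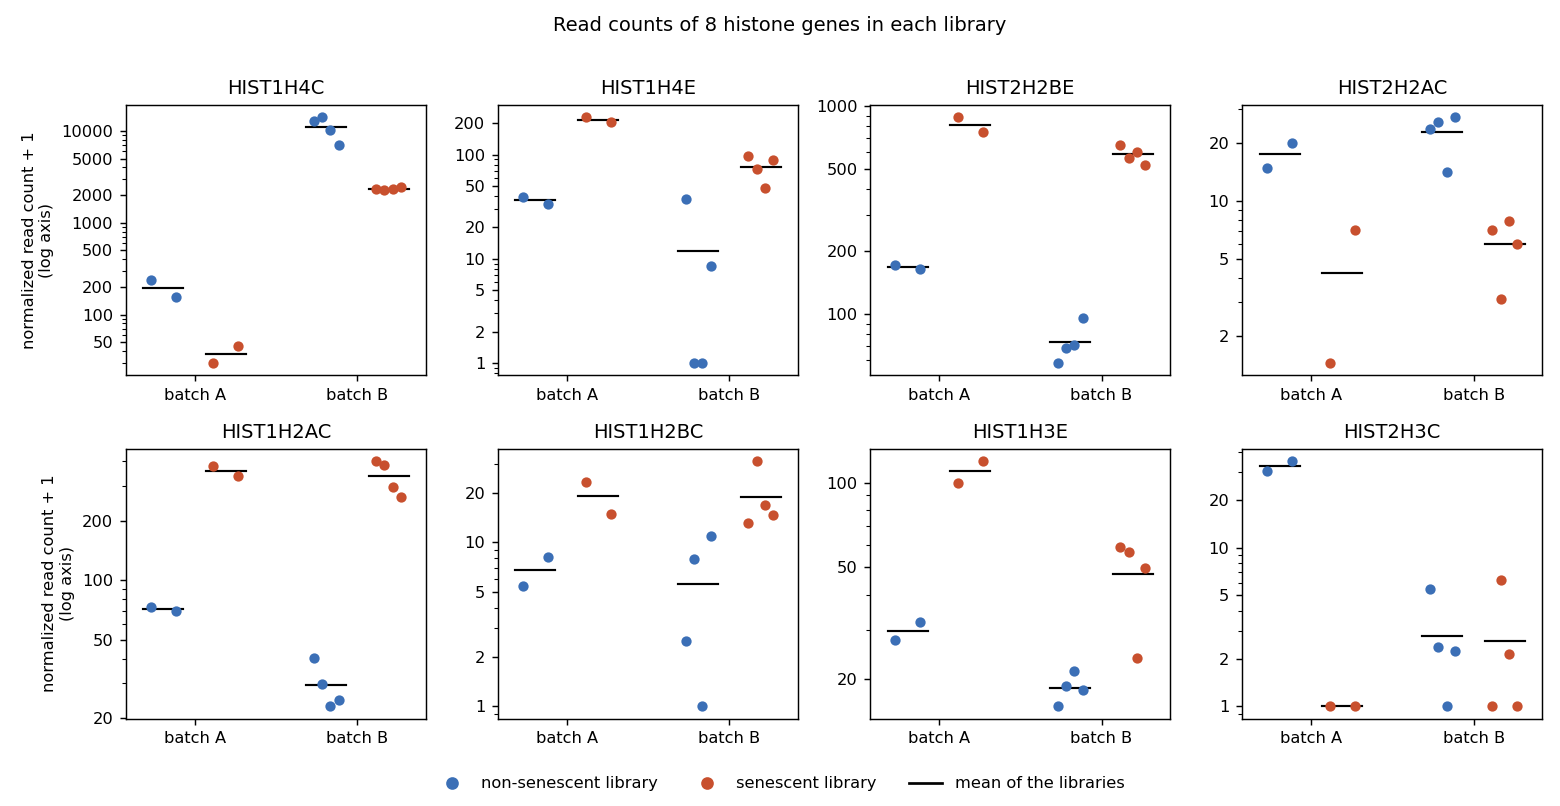
Normalized read counts (plus 1, log axis) of 8 histone genes in the 12 libraries, by batch. Points are libraries and bars are their means. HIST1H4C and HIST2H2AC are lower and HIST1H4E, HIST2H2BE, HIST1H2AC, HIST1H2BC and HIST1H3E higher in every senescent library than in the non-senescent ones of the same batch, and HIST2H3C differs in batch A.

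The remaining H4 genes encode the same kind of core histone, and none of the 4 others tested fell. HIST1H4E was at 38.3 and 32.6 in non-senescent and 226 and 205 in senescent libraries of batch A. In batch B it was at 36.1, 0, 0 and 7.45 in non-senescent and 95.7, 71.4, 46.9 and 87.2 in senescent libraries. The groups did not overlap in either batch, and the log2 fold change was 3.61 (SE 0.67, limma adjusted p 3.92e-04). In batch B, 2 of 4 non-senescent libraries were at 0, and in batch A alone the log2 fold change was 2.57.

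HIST1H4H rose by 2.13 (SE 0.28, limma adjusted p 1.06e-05), from 37.2 and 31.8 to 119 and 117 in batch A and from 3.01 to 10.2 up to 24.2 to 50.4 in batch B. HIST2H4A and HIST2H4B are a duplicated pair on chromosome 1 whose coding sequences were 100% identical. In batch B, 3 of 4 libraries of each group put all of the pair's reads on HIST2H4B, so their separate values are uncertain. HIST2H4B rose by 2.05 (SE 0.64, limma adjusted p 0.0181) with overlapping groups in batch B, and HIST2H4A did not pass the test (0.38, SE 0.83, limma adjusted p 0.76). Their sum was 92.8 and 124 against 255 and 248 in batch A and 9.64 to 43.5 against 44.8 to 89.7 in batch B, with no overlap, and fitted as 1 gene it rose by 1.40 (SE 0.27, limma adjusted p 4.52e-04).

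Among H2A genes, which encode the core histone that pairs with H2B, 4 of 6 tested members rose and 2 fell. HIST1H2AC was at 72.3 and 69.1 in non-senescent and 377 and 337 in senescent libraries of batch A. In batch B it was at 39.2, 28.9, 21.9 and 23.6 in non-senescent and 401, 383, 295 and 263 in senescent libraries. The groups lay well apart in both, with a log2 fold change of 3.13 (SE 0.20, limma adjusted p 2.68e-09).

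HIST2H2AA3 rose by 0.87 (SE 0.13, limma adjusted p 5.64e-05), from 262 and 240 to 464 and 476 in batch A and from 84.8 to 172 up to 217 to 254 in batch B. Its copy HIST2H2AA4, whose coding sequence was 100% identical, was listed at 0 in every library, so the value of HIST2H2AA3 may hold reads of both. HIST3H2A rose by 1.05 (SE 0.21, limma adjusted p 7.24e-04), and the groups of neither gene overlapped within a batch. HIST1H2AE, at 1.24 to 7.31 in non-senescent and 5.72 to 18.9 in senescent libraries, rose by 1.45 (SE 0.43, limma adjusted p 0.0123), with an overlap in batch B.

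HIST2H2AC fell in both batches. It was at 13.9 and 19.1 in non-senescent and 0.449 and 6.04 in senescent libraries of batch A, and at 13.2 to 26.1 against 2.1 to 6.87 in batch B. The log2 fold change was -2.12 (SE 0.39, limma adjusted p 3.94e-04), on 112 non-senescent and 28 senescent reads in all. HIST1H2AG fell (log2 -1.36) in the fit over both batches (limma adjusted p 0.0482), but its groups separated in opposite directions: 10.6 and 9.54 against 11.7 and 12.1 in batch A, and 2.92 to 15.1 against 0 to 2.1 in batch B.

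Among H2B genes, 4 of 8 tested members rose, 1 fell and 3 did not pass the test. HIST2H2BE was at 172 and 163 in non-senescent and 882 and 746 in senescent libraries of batch A. In batch B it was at 57.2, 67.5, 70.1 and 94.4 in non-senescent and 652, 565, 602 and 522 in senescent libraries. Every senescent library exceeded every non-senescent library of either batch, with a log2 fold change of 2.77 (SE 0.14, limma adjusted p 1.24e-10). HIST2H2BE supplied 64.1% of all H2B reads, and the H2B sum without it still differed by 0.88 in A and 0.86 in B.

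HIST1H2BD rose by 1.79 (SE 0.20, limma adjusted p 2.02e-06), HIST1H2BG by 1.70 (SE 0.19, limma adjusted p 2.17e-06) and HIST1H2BC by 1.98 (SE 0.50, limma adjusted p 0.00463). For all 3 the groups did not overlap in either batch. The annotated span of HIST1H2BC (chr6:26086317-26123926, minus strand) holds HIST1H4C on the other strand, and whether reads were counted by strand is not given in the sources used here. HIST1H2BJ fell (log2 -1.17, SE 0.39, limma adjusted p 0.0233), from 29.5 and 23.8 to 10.3 and 10.3 in batch A and from 6.88 to 10.5 to 1.14 to 8.72 in batch B, where the groups overlapped. HIST1H2BN had a log2 fold change of -0.38 (SE 0.18, limma adjusted p 0.103), HIST1H2BE of -0.25 (SE 0.33, limma adjusted p 0.594) and HIST1H2BH of 0.18 (SE 0.64, limma adjusted p 0.854).

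The 2 tested H3 genes moved in opposite directions. HIST1H3E was at 26.7 and 31 in non-senescent and 98.8 and 118 in senescent libraries of batch A, and at 15.1 to 20.5 against 22.9 to 58.2 in batch B. The groups did not overlap, and the log2 fold change was 1.47 (SE 0.23, limma adjusted p 8.03e-05). HIST2H3C had 96 reads in the 2 non-senescent libraries of batch A (29.5 and 34.2 normalized read counts) and 0 in the 2 senescent ones, which is at least 20.1-fold lower against a floor of 3 reads per library. In batch B it had 0 to 4.52 normalized read counts in non-senescent and 0 to 5.25 in senescent libraries and could not be compared at this depth. Its fall over both batches (log2 -1.87, SE 0.79, limma adjusted p 0.0714) thus rests on batch A, and leaving out either non-senescent library of batch A ended the call (adjusted p 0.175 and 0.184).

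The linker histone H1 had 1 tested member. HIST1H1C, which encodes a form of H1 that binds the DNA between nucleosomes, was at 23.3 and 16.7 in non-senescent and 32.8 and 24.8 in senescent libraries of batch A, and at 8.26 to 19 against 2.29 to 12.5 in batch B. It did not pass the test (log2 fold change -0.53, SE 0.38, limma adjusted p 0.287).

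The difference between the batches was tested as an interaction of batch and group, which passed an adjusted p of 0.1 for 2 of the 22 tested members (4.21% of all tested genes). HIST1H2AC rose more in B (3.53) than in A (2.32), a difference of 1.21 (limma adjusted p 0.0652). HIST2H3C fell in A and had few reads in B (limma adjusted p 0.0522). For HIST1H2AG the interaction was -2.38 (limma adjusted p 0.231).

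Many histone genes lie as head-to-head pairs with start sites close together. Of 20 such pairs among the members (start sites 170 to 979 bases apart), 4 had both members tested. Both rose in 2 pairs, HIST1H2BC with HIST1H2AC and HIST1H2BG with HIST1H2AE, and both had lower fitted values in HIST1H2BJ with HIST1H2AG. In the remaining pair HIST2H2BE rose and HIST2H2AC fell, although their start sites are 236 bases apart. The RefSeq window around the start of HIST2H2BE (GRCh38.p14, chr1:149886633-149886932, minus strand, 250 bases before to 50 after the start) therefore holds both starts and is shown because the genes it serves moved apart. Capitals mark the octamer ATTTGCAT, the TATA box TATAAA and the CCAAT box CCAAT, each searched on both strands.
HIST2H2BE: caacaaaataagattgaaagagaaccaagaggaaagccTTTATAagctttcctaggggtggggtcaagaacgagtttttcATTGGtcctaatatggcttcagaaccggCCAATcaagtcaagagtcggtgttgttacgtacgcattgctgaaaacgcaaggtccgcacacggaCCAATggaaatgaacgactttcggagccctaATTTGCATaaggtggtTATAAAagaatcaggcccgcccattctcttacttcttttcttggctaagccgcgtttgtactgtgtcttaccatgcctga
A TATA box on the sense strand begins 30 bases before the HIST2H2BE start, an octamer 46 bases before it, and a TATA box on the other strand faces HIST2H2AC.

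Such windows were found for 65 of 89 members and 21 of the 22 tested ones. The octamer, the binding letters of POU2F1, was in the windows of 14 of 18 H2B and 11 of 16 H2A members, 1 of 12 H3 and 0 of 13 H4 and 0 of 6 H1 members, beside 2.19% of all 27305 genes with a window. CCAAT was in all 52 windows of H1, H2A, H2B and H3 members but in 3 of 13 of H4 members, beside 39.7% of all genes. TATAAA was in 44 of the 65 windows, beside 14.0% of all genes. Among tested H2A and H2B members the octamer was found in 5 of 8 that rose and in all 3 that fell. The called members with an octamer were the members of the 4 pairs above. Of the tested H2B members that did not pass the test, HIST1H2BE and HIST1H2BH also had an octamer and HIST1H2BN did not. The windows of a pair overlap, so 1 octamer can be counted for both partners. A match is a string of letters and not a measured site.

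The annotation differs between members in the length of the 3' UTR. Of the 22 tested members, 12 have an annotated 3' UTR over 300 bases, and 10 have only shorter ones. Introns were left out of these lengths, and whether the long forms keep the stem-loop was not checked. Among the long ones 8 rose, 1 fell and 3 did not pass the test, with a median log2 fold change of 1.63. Among the short ones 4 rose, 4 fell and 2 did not pass the test, with a median of -0.18. The short ones that fell included HIST2H3C, whose call rests on batch A, and HIST1H2AG, whose batches went in opposite directions. Both of these, and HIST2H2AC (short, fell), passed the filter only through their non-senescent mean. HIST1H2AE (short, rose) and HIST1H2BC (long, rose) passed it only through their senescent mean. The long set holds both HIST2H4A and HIST2H4B, whose separate values are uncertain. The medians were 1.45 and 0.36 in batch A and 1.62 and 0.06 in batch B. Both sets were wide, from -1.17 (HIST1H2BJ, 569 bases) to 3.13 (HIST1H2AC, 1187 bases) for long and from -2.26 (HIST1H4C, 78 bases) to 3.61 (HIST1H4E, 65 bases) for short ones. Of all members with an annotated 3' UTR, 16 of 18 long ones and 33 of 52 short ones had any read. These are descriptions of a split with no test, and the tail of the reads' transcripts was not measured.

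**Figure D4:**
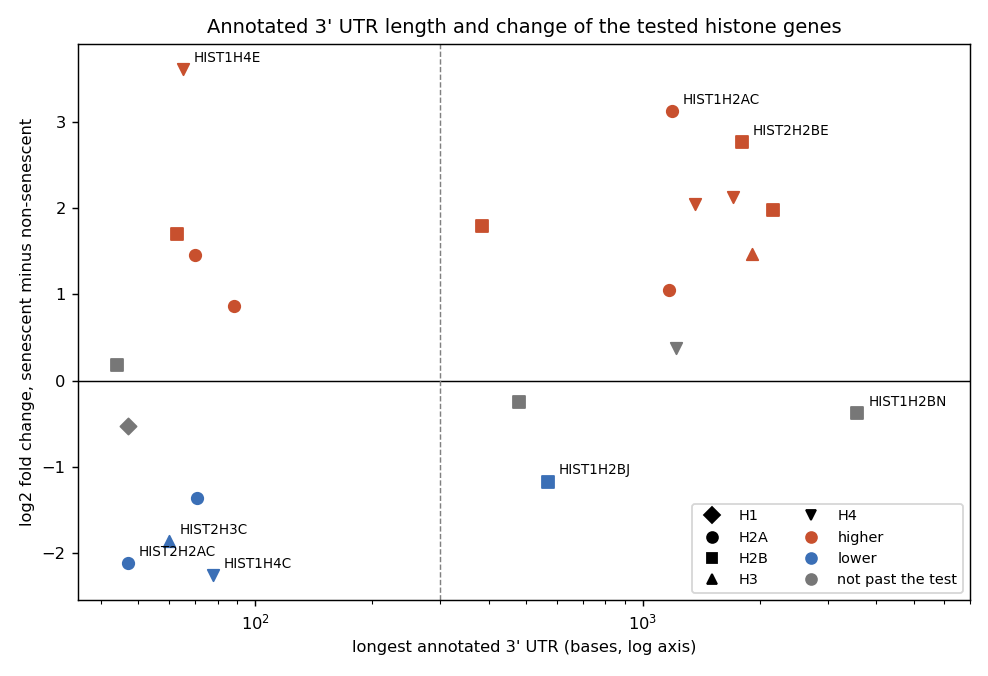
Longest annotated 3' UTR of each tested member (bases, log axis) against its log2 fold change, senescent minus non-senescent. Marker shape gives the histone class, color gives the call and the dashed line is at 300 bases. To the right of the line 8 of 12 members rose, and to the left 4 rose and 4 fell. HIST2H2AC, HIST1H2AG, HIST2H3C, HIST1H2AE and HIST1H2BC passed the filter only through the group where they were higher.

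The genes around histone production were counted from lists, to be read beside the 11.6% of all tested genes that rose and the 11.8% that fell. In histone locus transcription, 6 of 10 tested genes fell and 0 rose. NPAT, the coactivator of these genes, averaged 174 ± 15.4 normalized read counts without and 114 ± 18.3 with senescence (SD, n = 6 each), a log2 fold change of -0.62 with no overlap within either batch. E2F1, an activator of S phase entry, fell from 1005 ± 211 to 165 ± 52.6 (log2 fold change -2.64), and CDK2 (-2.37), CDC25A (-2.10), CCNE2 (-2.06) and CCNE1 (-0.69) fell too.

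In histone 3' end processing, 2 of 11 fell and 0 rose, a count near those shares. SLBP, the stem-loop binding protein, fell from 542 ± 83.7 to 204 ± 75.6 (SD, n = 6 each), a log2 fold change of -1.47 (SE 0.11, limma adjusted p 9.35e-09), with -1.11 in A and -1.65 in B and no overlap within either batch. SRRT, also known as ARS2, fell as well (-0.68). In histone mRNA translation and decay, 2 of 9 rose and 1 fell, also near those shares: the exonuclease XRN1 (log2 fold change 0.81) and the uridylyltransferase ZCCHC6 (0.94) rose, while ERI1 (-0.59), an exonuclease that acts on the stem-loop, fell.

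Of 15 histone chaperones 5 fell and 0 rose: ASF1B (log2 fold change -2.73), the CAF-1 subunits CHAF1A (-2.31) and CHAF1B (-1.42), the acetyltransferase HAT1 (-0.95) and NASP (-0.67). All 15 S phase genes fell, with a median log2 fold change of -2.08. The 6 largest log2 fold changes were those of CDC45 (-3.16), RRM2 (-2.52), CDC6 (-2.46), TYMS (-2.41), MCM5 (-2.27) and FEN1 (-2.17). Replacement histones, most of which are made also outside S phase from ordinary polyadenylated mRNA, fell for 6 of 11 tested and rose for 0, with a median of -0.63. The list holds H2AFX (H2AX), whose gene has the histone stem-loop, and without it 5 of 10 fell with a median of -0.54. H1F0 (-1.42), H2AFZ (-1.31) and CENPA (-2.66) were among those that fell.

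**Figure D5:**
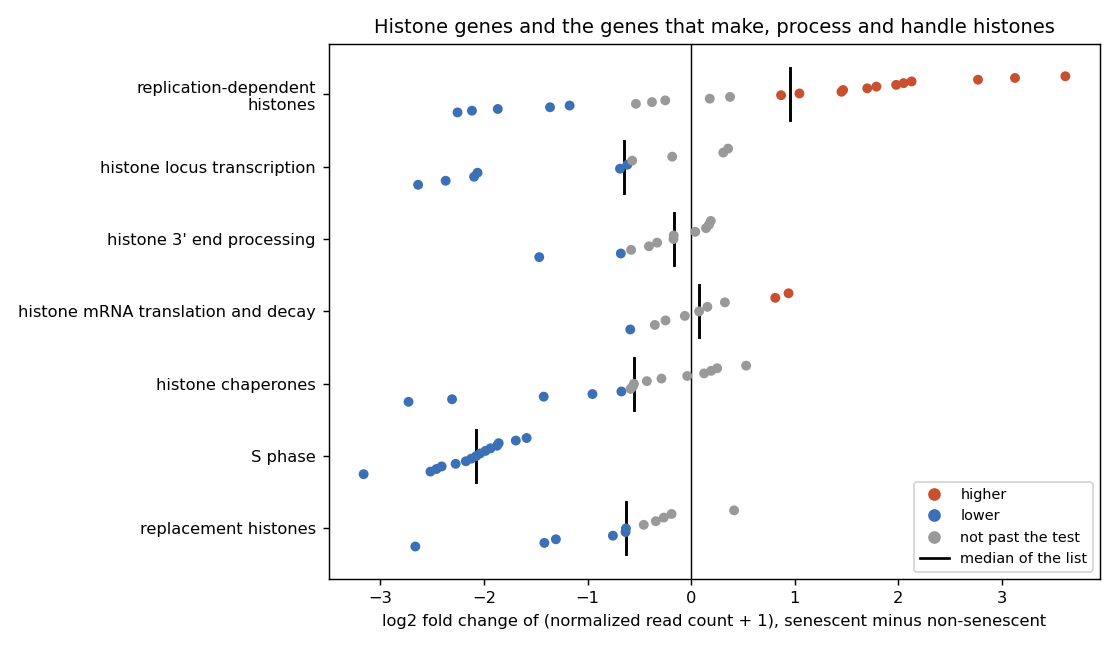
Log2 fold change (senescent minus non-senescent) of each tested gene in the replication-dependent histones and in the 6 lists. Points are genes, colored by call, and black bars are medians. The histone genes have a median of 0.96, the S phase genes of -2.08 and the replacement histones of -0.63.

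The 67 untested members carried little signal. Of these, 35 had no read in any library, and the other 32 had 1 to 74 reads over all 12 libraries (227 non-senescent and 234 senescent reads in all). These reads were not scaled for depth, and the senescent libraries were the deeper ones in both batches. With no filter on the mean, 5 of them passed the test. HIST1H2AJ (21 non-senescent and 1 senescent reads, limma adjusted p 2.81e-04), HIST1H1A (16 and 2, 0.0455), HIST1H2AI (9 and 2, 0.054) and HIST1H3J (13 and 0, 0.0734) were lower, and HIST1H4J (5 and 23, 0.0682) was higher. These 5 were chosen after their values were seen. Members lie on chromosome 6 (66), chromosome 1 (19), chromosome 13 (2, both annotated as pseudogenes) and chromosome 12 (1), with 1 not placed. The 15 tested members on chromosome 6 included 8 that rose and 3 that fell, and the 7 on chromosome 1 included 4 that rose and 2 that fell.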

How the data were processed

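CEL-seq2 libraries of 12 samples were quantified by the authors, who trimmed reads with cutadapt, used Salmon 0.13.1 on GRCh38 and normalized with DESeq2. Which transcript models were used, and whether UMIs were collapsed, is not given in the sources used here. The deposited values are a signal, reads per gene divided by 1 size factor per sample, and are called normalized read counts. The deposited log2 fold changes, test score and p-values are the authors' own comparison and were not used. Labels and methods give different units for the 4-OHT dose, so no dose is stated.

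Members, lists and tests were chosen with earlier results of these data known. The main test was limma 3.58.1 (R 4.3.3) with trend on log2(normalized read count + 1), with batch and group, for 13847 genes with a mean of at least 5. A gene was called past 1.5-fold at an adjusted p (Benjamini-Hochberg) under 0.1. Every called member and the 10 most abundant uncalled ones were to be named, which covered all 22 tested, along with called list genes (at most 6 per list), SLBP and NPAT. Dividing by the smallest value per library gave whole reads for 100% of 196021 values above 0 (tolerance 1e-06), so edgeR 4.0.16 and DESeq2 1.42.0 were run as alternatives and called 3238 and 3223 genes. The script was tested on simulated data. Salmon divides reads among similar transcripts. Positions, 3' UTRs and coding sequences (the longest open reading frame) came from GENCODE v44 on GRCh38 and promoter windows from RefSeq. All 89 members matched RefSeq by older symbol. Libraries of one group differed beyond sampling noise (chi-square per degree of freedom 4.14 to 7.66).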

Additional observations from a re-analysis of the deposited data

Results flagged for a closer look

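The interaction of batch and group passed for HIST1H2AC (1.21, limma adjusted p 0.0652), which rose in both batches, and for HIST2H3C (4.75, limma adjusted p 0.0522). In HIST2H3C the fall was in batch A, and the reads in batch B were 5 in non-senescent and 6 in senescent libraries. For HIST1H2AG the groups separated in opposite directions, with log2 differences of 0.22 in batch A and -2.15 in batch B.

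Class sums also separated in opposite directions in the batches, a difference that was not tested. The H4 sum differed by 0.74 in A and -2.08 in B, and the H1 sum by 0.51 in A and -1.52 in B.

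Over 54 groups of 6 libraries (the class sums and the tested members), 2 had a library far from the others, where chance gives about 1 in 20. HIST1H2BH was at 38.6 in senescent B4, and the next highest senescent library was at 9.88. HIST2H3C was at 5.25 in senescent B2, and the next was at 1.14.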

How the results depend on the processing

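Of the 17 called members, 12 kept their direction and call in every alternative that tested them: HIST2H2AC, and all that rose except HIST2H4B, which was lost without the batch term (adjusted p 0.177), as was HIST1H4C (0.418). The count of members that rose stayed at 12 with any 1 library left out. The count that fell, 5, was 8 with no filter, 1 with a mean of at least 20, 1 without the batch term, 3 in batch B alone and 3 to 5 with 1 library left out (3 without non-senescent B1 or senescent B1). edgeR and DESeq2 each called 12 higher and 4 lower. HIST2H3C and HIST1H2AG were lost in 12 and 6 alternatives, HIST1H2BJ without the batch term and in batch B alone (adjusted p 0.205 and 0.124), and HIST1H2BN and HIST2H4A passed in batch A alone. Values that changed sign were HIST1H2AG (0.22) and HIST1H1C (0.51) in batch A alone, HIST2H4A in batch B alone (-0.22), with 1 library left out (-0.17 without senescent B1, up to 1.19) and with DESeq2 (-0.11), and HIST1H2BH in batch A alone (-0.27) and with 1 library left out (-0.41 to 0.61, negative without non-senescent B3, non-senescent B4 or senescent B4). List genes that rose, 2, were 1 without the batch term, 0 in batch A alone, 1 in batch B alone and 1 to 3 with 1 library left out (1 without senescent B2). Members with an interaction, 2, were 1 at a mean of at least 20.

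Class sums without their most abundant member differed by 1.95 for H4 and -1.37 for H3, against -1.14 and 0.69 with it, and by 1.74 for H2A and 0.87 for H2B, against 1.36 and 1.86. In batch A alone the full sums differed by 0.51 for H1, 1.70 for H2B and 0.74 for H4, and in batch B alone -1.52 for H1 and -2.08 for H4. Scaling libraries to the same total gave 1.75 for H2B, moved the median of all genes by -0.10 and gave 1225 higher and 2092 lower genes (36.9% higher among calls, against 49.6%). No member changed direction under it or under TMM. HIST2H4A and HIST2H4B were summed as an alternative chosen after seeing the data.

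With the replicate block in place of the batch term, 12 members rose and 4 fell, and HIST2H3C was lost (adjusted p 0.122). Deviations of libraries with the same label correlated at -0.05 to 0.02, and no library correlated best with its own label, so labels were not taken as pairs. In batch A each group has 2 libraries, whose deviations mirror each other. A1 and A2 therefore gave the same value (-0.05), and pairing in batch A could not be judged. The cause of these changes was not tested.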
